A study of Homo sapiens with 48 samples.

Results

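The 33 genes described here encode the enzymes that make dolichol and that build the lipid-linked sugar precursor of N-glycans. They were taken by name from the deposited table of 25066 genes, in which all 33 were found. Of the 13881 genes with enough reads to be tested, 32 were members. GFPT2 was the exception, with 0 or 1 read in each library and 4 reads in all. Levels are read counts scaled to library size (CPM, with TMM factors), and they are compared between libraries and not between genes, because no gene length enters them.

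The cells were TMD8 and HBL1, established human lines of diffuse large B cell lymphoma, and all libraries came from derivatives engineered to carry Cas9, the controls included. Each line was given the vehicle DMSO, 5 µM NGI-1 (an inhibitor of the oligosaccharyltransferase that moves the finished precursor onto proteins), 50 nM acalabrutinib (an inhibitor of the kinase BTK) or 20 nM copanlisib (an inhibitor of PI3K). Collection was after 3, 6 or 24 h, 24 groups held 2 libraries each, and the 48 libraries held 7165377 to 11999050 counted reads. The labels do not say whether the 2 libraries of a group came from separate cultures, so a p-value here rests on a spread that may be technical. All 8 B cell markers examined were detected, with summed levels of 3562 to 6112 CPM per library. The 6 T and NK cell markers summed to at most 0.483 CPM and the 5 myeloid markers to at most 3.15 CPM. Stromal or epithelial markers reached 24.6 CPM, carried by EPCAM and COL1A2 in HBL1 and by KRT8 in TMD8, and their part in the results was not tested. In bulk RNA, fewer cells of a type and less RNA per cell cannot be told apart.

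N-glycans are built on the membrane lipid dolichol phosphate before they are joined to protein. UDP-GlcNAc from the hexosamine pathway and GDP-mannose supply the sugars. The first sugars are added on the cytosolic face of the endoplasmic reticulum, the intermediate is turned over to the lumen, and mannose and glucose carried by dolichyl phosphate complete the structure. Several genes of the pathway are textbook targets of the unfolded protein response, the set of transcriptional programmes that a cell starts when unfolded protein builds up in the endoplasmic reticulum.

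Across the 18 comparisons of a compound with DMSO, 61 of 576 tests of a member passed an adjusted p under 0.05 in edgeR's quasi-likelihood F test, 28 higher and 33 lower. Changes are given as the log2 change ± its standard error. The 61 calls fell on 23 members, and 9 tested members were never called. Over the 18 comparisons the share called ran from 0% to 34.4% of tested members and from 0.245% to 31.8% of all genes. These ranges pool unlike comparisons, so a count of members is to be read beside the share of all genes in its own comparison. In TMD8 it was 18.8% of members beside 4.33% of all genes with NGI-1 at 6 h. With acalabrutinib at 24 h it was 12.5% beside 31%. By compound there were 21 higher and 4 lower calls for NGI-1, 2 higher and 10 lower for acalabrutinib, and 5 higher and 19 lower for copanlisib. The 3 compounds were compared with the same DMSO libraries in each line and at each time, so their values stand side by side and are not separate evidence. The treated and DMSO libraries did not overlap in any of the 61 calls. In all 576 tests, 297 showed no overlap, so here and below a lack of overlap is not separate support for a call. Of the 61 calls, 37 held in all of 8 other settings of scaling, filter and model. Each was also recomputed without each library of the groups compared in turn. Below, "every recomputation" means both kinds, and libraries without which a call was lost are named beside it. Such a fit leaves a lone library in its group and a wider error. A lost call therefore does not show that the call rested on that library. No called value changed sign in any recomputation.

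**Figure D1:**
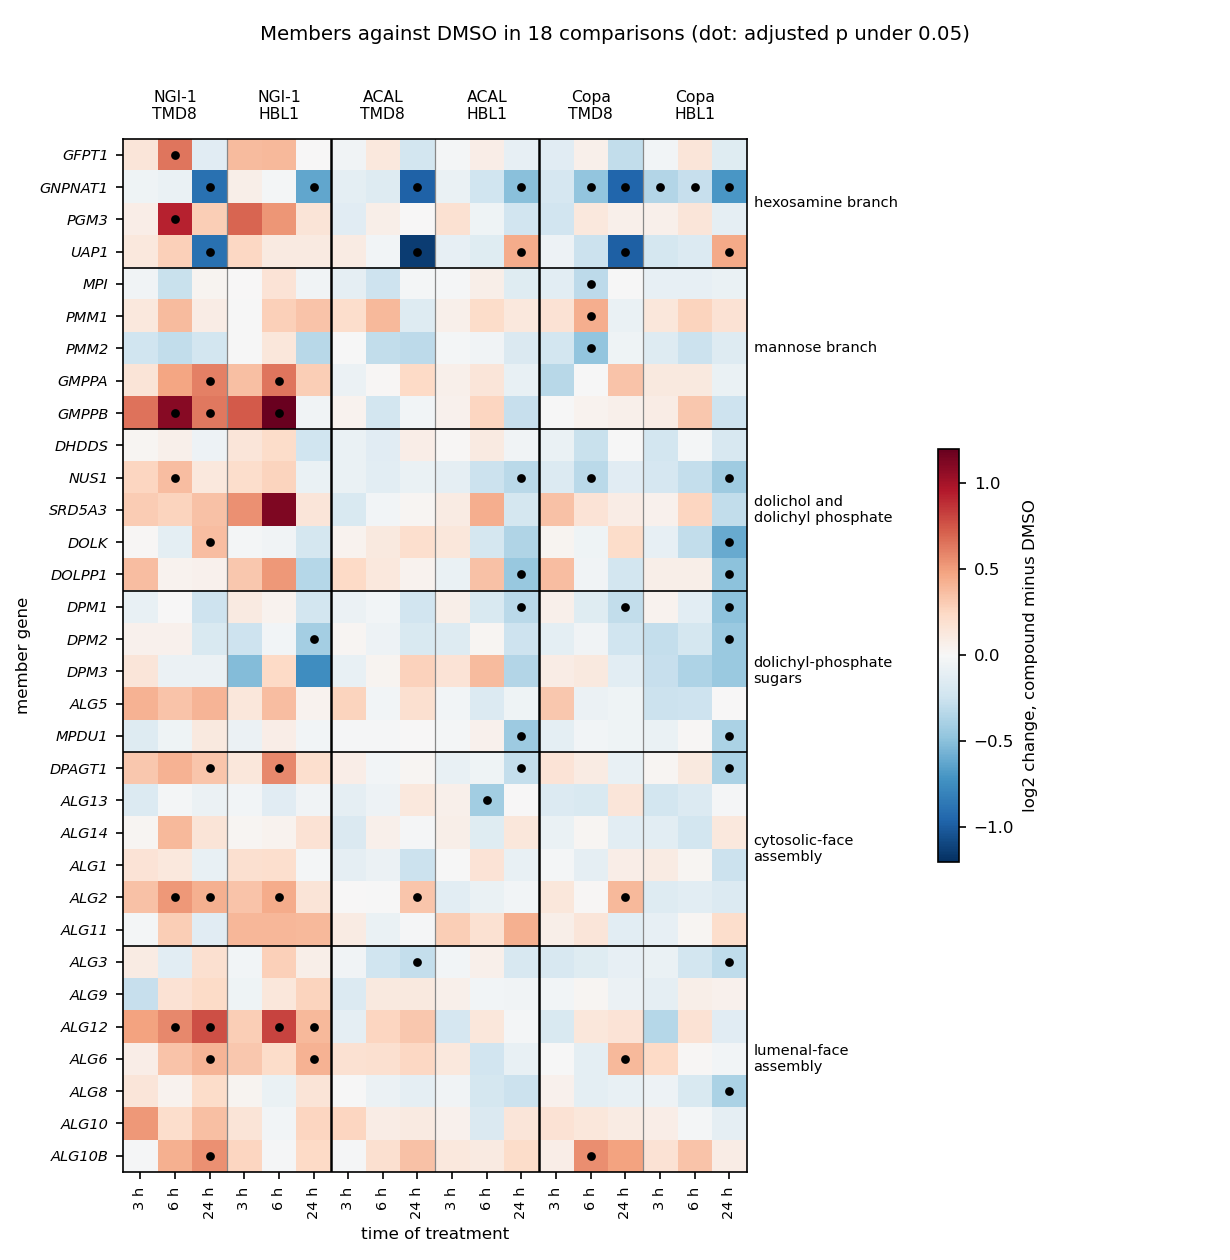
Log2 change of each of the 32 tested members (rows, grouped by role) against DMSO in the 18 comparisons (columns, by compound, line and time of treatment, with ACAL for acalabrutinib and Copa for copanlisib). Red is higher and blue lower with the compound, and a dot marks an adjusted p under 0.05 in edgeR. Dots stand on red cells in 21 of 25 NGI-1 calls, and GNPNAT1 has dots on blue cells in all 6 columns at 24 h.

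With NGI-1, members moved upward at 6 h in both lines. At that time 6 members rose and 0 fell in TMD8 (share of all tested genes called: 4.33%, 2.35% higher and 1.98% lower), and 5 rose and 0 fell in HBL1 (1.13%, 1.06% higher and 0.072% lower). The median log2 change of the 32 members was 0.24 in TMD8 and 0.22 in HBL1, beside 0.00 and 0.00 over all genes. GMPPB, ALG2 and ALG12 were called in both lines, which is 3 of the 6 calls in TMD8 and 3 of the 5 in HBL1. No member was called at 3 h in either line, against 0.771% and 0.353% of all genes. DESeq2 also called 0, and 8 members in TMD8 and 10 in HBL1 had an unadjusted p under 0.05 in edgeR, with median log2 changes of 0.11 and 0.14. The count at 3 h depended on the model: with the replicate number as a block within each line and time it was 4 in TMD8 and 5 in HBL1, with a single replicate block 0 and 3, and with no filter on low counts 1 and 3. By 24 h 8 members were higher and 2 lower in TMD8 (all genes 30.7%, 15.7% higher and 14.9% lower) and 2 and 2 in HBL1 (19.4%, 7.95% higher and 11.4% lower). In this model, which holds no replicate term, the share of members called was thus close to or under that of all genes. With the block within line and time more members were called at 6 h in both lines and at 24 h in HBL1. Those counts are given in the closing section, without the share of all genes.

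With acalabrutinib 0 members were called at 3 h in TMD8 and in HBL1 (background 0.389% and 0.245%) and 0 at 6 h in TMD8 (4.64%). DESeq2 called 0 in these as well, and edgeR gave an unadjusted p under 0.05 for 0, 0 and 4 members. At 6 h in TMD8 the count was 3 with the block within line and time and 1 with the line fitted alone. ALG13 alone was lower at 6 h in HBL1 (5.65%, 2.49% higher and 3.16% lower). At 24 h in TMD8 acalabrutinib raised 1 member and lowered 3 (31%, 15.5% higher and 15.5% lower). At 24 h in HBL1 it raised 1 and lowered 6 (19%, 7.62% higher and 11.4% lower). With copanlisib 0 members were called at 3 h in TMD8 (1.76%, with 0 in DESeq2, 2 at an unadjusted p under 0.05, and 1 with the block within line and time), and 1 was lower in HBL1 (2.1%, 0.814% higher and 1.29% lower). At 6 h copanlisib raised 2 members and lowered 4 in TMD8 (14.6%, 7.09% higher and 7.46% lower) and lowered 1 in HBL1 (9.53%, 4.19% higher and 5.34% lower). At 24 h it raised 2 and lowered 3 in TMD8 (31.8%, 15.8% higher and 16% lower). In HBL1 it raised 1 and lowered 10 (30.5%, 12.7% higher and 17.8% lower). In HBL1 at 24 h the median log2 change of the members was -0.12 with acalabrutinib and -0.16 with copanlisib. Over all genes it was -0.01 and -0.02. In TMD8 at 24 h the members' medians were 0.00 and -0.05, beside 0.01 and 0.00 over all genes. At 3 and 6 h they ran from -0.09 to 0.01 over both lines and both kinase inhibitors.

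Promoter sequences are shown for 3 members on which these results turn: ALG12 and GMPPB, which rose with NGI-1 in both lines at 6 h, and GNPNAT1, which fell with all 3 compounds at 24 h. Each is the 250 bases before the start site on the gene's own strand, from RefSeq on GRCh38.p14, at chr22:49918439-49918688 for ALG12, chr3:49723952-49724201 for GMPPB and chr14:52791608-52791857 for GNPNAT1, all on the minus strand. Capitals mark a match to the endoplasmic reticulum stress element.
ALG12: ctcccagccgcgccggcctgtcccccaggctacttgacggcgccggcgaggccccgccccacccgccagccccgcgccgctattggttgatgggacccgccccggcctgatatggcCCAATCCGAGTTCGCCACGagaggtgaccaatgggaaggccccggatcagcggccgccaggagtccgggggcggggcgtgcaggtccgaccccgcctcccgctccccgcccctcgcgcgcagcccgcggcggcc
GMPPB: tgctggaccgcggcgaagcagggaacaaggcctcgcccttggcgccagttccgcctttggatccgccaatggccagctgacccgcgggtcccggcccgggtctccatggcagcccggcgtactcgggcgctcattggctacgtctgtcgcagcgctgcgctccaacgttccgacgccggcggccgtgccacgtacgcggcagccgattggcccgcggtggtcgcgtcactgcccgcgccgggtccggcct
GNPNAT1: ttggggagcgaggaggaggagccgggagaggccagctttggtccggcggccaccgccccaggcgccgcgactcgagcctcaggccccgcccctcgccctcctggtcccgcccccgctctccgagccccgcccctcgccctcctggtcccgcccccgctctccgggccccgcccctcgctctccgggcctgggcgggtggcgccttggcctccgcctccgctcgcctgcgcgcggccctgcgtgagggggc

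Of the 33 members, 32 had at least 1 of the 35116 promoter windows of 300 bases (250 before and 50 after the start), 45 windows in all. Both strands were searched for 4 motifs of the unfolded protein response. The stress element ERSE (CCAAT, any 9 bases and CCACG) stood in 0.0769% of all windows and in 1 member window, that of ALG12. ERSE-II (ATTGG, any 1 base and CCACG, in 0.0541% of windows) and an ATF4 element (TGATGNAAT, 0.991%) stood in none of the member windows, and the UPRE core (TGACGTGG, 0.729%) only in that of DHDDS. A match describes letters and is not a binding site shown by these data. CRELD2, a gene of the endoplasmic reticulum stress response on the opposite strand, has its start site 196 bases from that of ALG12, and it rose with NGI-1 in 6 of 6 comparisons, by log2 changes of 0.94, 1.48 and 1.32 in TMD8 and 0.66, 1.28 and 0.78 in HBL1 at 3, 6 and 24 h. Whether a motif bears on the change of either gene was not tested. DHDDS was never called against DMSO, and GMPPB rose with no match in its window.

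The hexosamine branch makes UDP-GlcNAc. With NGI-1 in TMD8, 2 of its 4 tested members rose at 6 h, where 2.35% of all genes were higher. The other 2 fell at 24 h, where 14.9% of all genes were lower. At 24 h in TMD8, 2 were also lower with acalabrutinib and 2 with copanlisib, where 15.5% and 16% of all genes were lower. GFPT1, the enzyme that commits fructose 6-phosphate to the branch, read 69.3 and 67.8 CPM against 45.4 and 42.4 CPM with NGI-1 and DMSO at 6 h in TMD8. Both NGI-1 libraries were above both DMSO libraries, a log2 change of 0.64 ± 0.12 (adjusted p = 0.00048), and the call held in every recomputation. In HBL1 the log2 change of GFPT1 was 0.38 ± 0.11 (adjusted p = 0.15) at 3 h and 0.39 ± 0.11 (adjusted p = 0.064) at 6 h, and neither passed. PGM3, the mutase of the branch, read 36.9 and 36.3 CPM against 17.3 and 21.3 CPM at 6 h in TMD8, so the NGI-1 libraries stood above the DMSO libraries with a log2 change of 0.92 ± 0.22 (adjusted p = 0.0071). That call was lost without DMSO library 1 (0.2) or NGI-1 library 1 (0.059) or 2 (0.053), where libraries are numbered as replicates in the labels and brackets hold the adjusted p without them. PGM3 shares 13.5% of its exon bases with DOP1A on the opposite strand, which the table lists as DOPEY1, and that gene's own log2 change at 6 h was 0.34 ± 0.10 (adjusted p = 0.052).

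GNPNAT1, the acetyltransferase that makes N-acetylglucosamine 6-phosphate, was lower in 9 of the 18 comparisons and higher in none. At 24 h in TMD8 it read 34.04 and 33.2 CPM against 62.95 and 62.6 CPM for NGI-1 and DMSO, 30.7 and 33.6 CPM against 62.95 and 62.6 CPM for acalabrutinib and 35.2 and 29.4 CPM against 62.95 and 62.6 CPM for copanlisib. All 6 treated libraries lay below both DMSO libraries. The log2 changes were -0.90 ± 0.10 (adjusted p = 2.4e-09), -0.97 ± 0.10 (adjusted p = 3.8e-10) and -0.95 ± 0.10 (adjusted p = 6.4e-10). At 24 h in HBL1 it read 48.4 and 46.1 CPM against 73.6 and 72.4 CPM for NGI-1 and DMSO, 49.9 and 53.2 CPM for acalabrutinib and 45.2 and 44.8 CPM for copanlisib, again with no overlap. The log2 changes there were -0.63 ± 0.09 (adjusted p = 4e-06), -0.50 ± 0.09 (adjusted p = 0.00013) and -0.70 ± 0.09 (adjusted p = 2.6e-07). These 6 calls held in every recomputation, as did the fall with copanlisib at 6 h in TMD8, -0.47 ± 0.09 (adjusted p = 0.00042).

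Copanlisib also lowered GNPNAT1 early in HBL1, with a log2 change of -0.35 ± 0.09 (adjusted p = 0.027) at 3 h and -0.28 ± 0.09 (adjusted p = 0.04) at 6 h. The call at 3 h was lost without DMSO library 1 (0.25) or copanlisib library 1 (0.11) or 2 (0.14), and with no filter on low counts, and that at 6 h without DMSO library 1 (0.37) or copanlisib library 1 (0.13) or 2 (0.19), and with no filter on low counts. Under NGI-1 the change of GNPNAT1 was -0.08 ± 0.09 (adjusted p = 0.79) at 6 h in TMD8 and -0.02 ± 0.09 (adjusted p = 0.98) in HBL1, neither of which passed. In the GRCh38 annotation 36.9% of its exon bases lie under an antisense RNA, and no source used here names the strand setting of the counting. The difference between the effects at 24 h and at 3 h passed for NGI-1 in both lines, -0.85 ± 0.14 (adjusted p = 3.3e-05) in TMD8 and -0.69 ± 0.13 (adjusted p = 0.00055) in HBL1.

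UAP1, which makes UDP-GlcNAc in the last step of the branch, fell in TMD8 with all 3 compounds and rose in HBL1 with the kinase inhibitors at 24 h. At 24 h in TMD8 it read 28.5 and 26.8 CPM against 51.9 and 51.1 CPM for NGI-1 and DMSO, 22.3 and 24.6 CPM against 51.9 and 51.1 CPM for acalabrutinib and 27.8 and 24.1 CPM against 51.9 and 51.1 CPM for copanlisib, and all treated libraries were below the DMSO libraries. The log2 changes were -0.90 ± 0.11 (adjusted p = 2.2e-08), -1.13 ± 0.11 (adjusted p = 1.3e-10) and -0.98 ± 0.11 (adjusted p = 3.1e-09). At 24 h in HBL1 the libraries read 125 and 123 CPM against 93.2 and 89.8 CPM for acalabrutinib and DMSO and 133 and 117 CPM against 93.2 and 89.8 CPM for copanlisib, all treated above all untreated. The log2 change of UAP1 there was 0.44 ± 0.09 (adjusted p = 0.00055) with acalabrutinib and 0.45 ± 0.09 (adjusted p = 0.00018) with copanlisib, while its change with NGI-1 was 0.11 ± 0.09 (adjusted p = 0.45) and did not pass. The difference between the lines (TMD8 minus HBL1) was -1.01 ± 0.14 (adjusted p = 1.3e-05) for NGI-1, -1.58 ± 0.14 (adjusted p = 8.9e-10) for acalabrutinib and -1.44 ± 0.14 (adjusted p = 5.3e-09) for copanlisib. All 5 calls against DMSO and all 3 line differences held without each library and under each other setting.

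**Figure D2:**
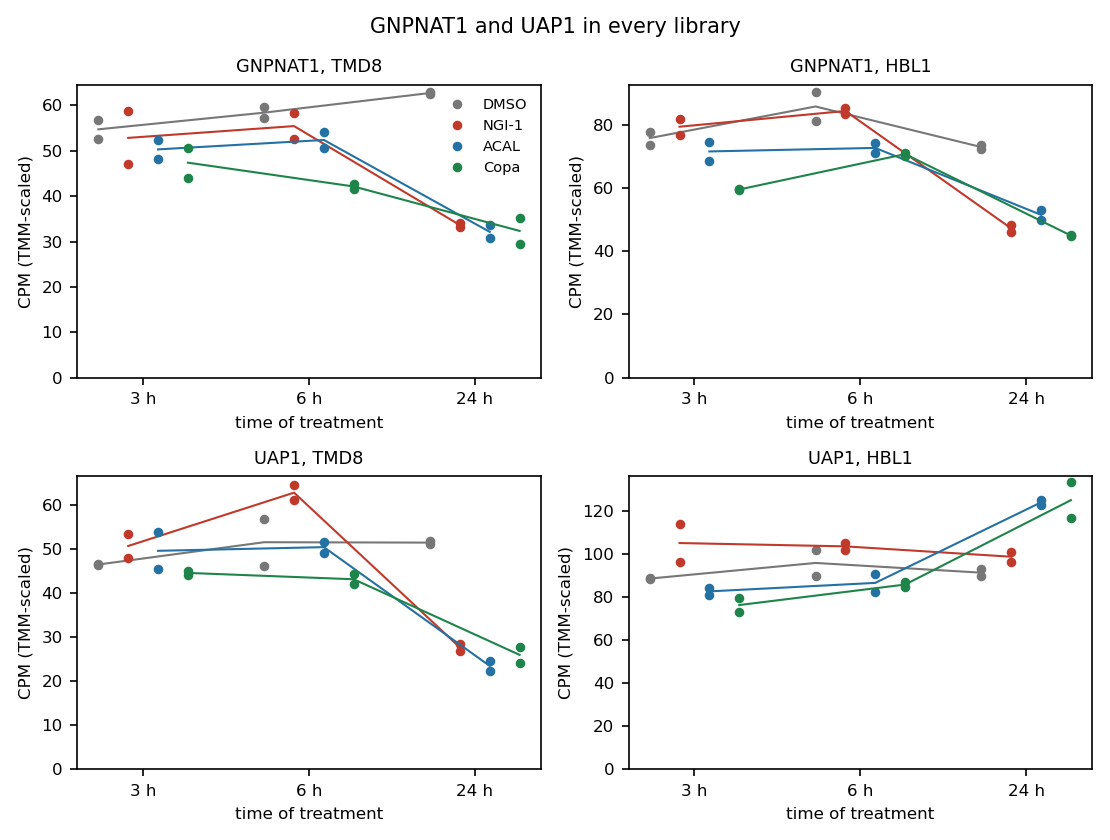
Levels of GNPNAT1 (top) and UAP1 (bottom) in CPM after TMM scaling, by time of treatment and compound (ACAL, acalabrutinib, and Copa, copanlisib), in TMD8 (left) and HBL1 (right). Points are libraries (2 per group) and lines join group means. At 24 h all treated points of GNPNAT1 lie below DMSO in both lines, and those of UAP1 lie below DMSO in TMD8 only.

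The mannose branch turns fructose 6-phosphate into GDP-mannose, and 2 of its 5 members rose with NGI-1. At 6 h 1 was called higher in TMD8 and 2 in HBL1, where 2.35% and 1.06% of all genes were higher. At 24 h 2 were higher in TMD8, where 15.7% of all genes were. GMPPB, the catalytic subunit of GDP-mannose pyrophosphorylase, read 37.2 and 32.2 CPM against 18.6 and 13.9 CPM with NGI-1 and DMSO at 6 h in TMD8 and 42.9 and 52.4 CPM against 17.9 and 24.1 CPM in HBL1. NGI-1 libraries exceeded DMSO libraries in both lines, with log2 changes of 1.09 ± 0.21 (adjusted p = 0.00057) and 1.18 ± 0.20 (adjusted p = 0.00018), the largest called rises of any member in the 18 comparisons. The call in TMD8 held in every recomputation, and that in HBL1 was lost without DMSO library 1 (0.058). GMPPB was already at 0.65 ± 0.21 (adjusted p = 0.23) and 0.74 ± 0.19 (adjusted p = 0.084) at 3 h without passing. At 24 h its log2 change was 0.63 ± 0.22 (adjusted p = 0.025) in TMD8, lost without NGI-1 library 1 (0.26) or DMSO library 2 (0.18), and -0.05 ± 0.20 (adjusted p = 0.92) in HBL1. In the GRCh38 annotation 45.3% of the exon bases of GMPPB also belong to AMIGO3 on the same strand, and AMIGO3 had log2 changes of 1.07 and 1.16 at 6 h, so reads of the 2 genes cannot be told apart there. RNF123 on the opposite strand covers 10.6% and had log2 changes of 0.45 and 0.55.

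GMPPA, the regulatory subunit of the same enzyme, read 43.9 and 40.3 CPM against 25.5 and 29.8 CPM at 24 h in TMD8. Its NGI-1 libraries were above both DMSO libraries by a log2 change of 0.60 ± 0.15 (adjusted p = 0.0019), a call that held in every recomputation. In HBL1 GMPPA rose at 6 h, with a log2 change of 0.64 ± 0.14 (adjusted p = 0.0087), which was lost without DMSO library 1 (0.48) or NGI-1 library 2 (0.34), and with the line fitted alone. MPI, PMM1 and PMM2, which isomerise and convert the mannose phosphates, were called only with copanlisib at 6 h in TMD8. Their log2 changes were -0.31 ± 0.09 (adjusted p = 0.015) for MPI, -0.47 ± 0.12 (adjusted p = 0.0042) for PMM2 and 0.44 ± 0.14 (adjusted p = 0.033) for PMM1. The call for MPI was lost without DMSO library 1 (0.13) or copanlisib library 1 (0.11) or 2 (0.058), and with no filter on low counts. That for PMM2 was lost without DMSO library 2 (0.078) or copanlisib library 2 (0.091). That for PMM1 was lost without DMSO library 1 (0.16) or 2 (0.12) or copanlisib library 1 (0.32), and with no filter on low counts, in DESeq2 or with the line fitted alone. The exons of PMM2 share 49% of their bases with a second gene on the same strand, and those of MPI 31.8% with FAM219B on the other.

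**Figure D3:**
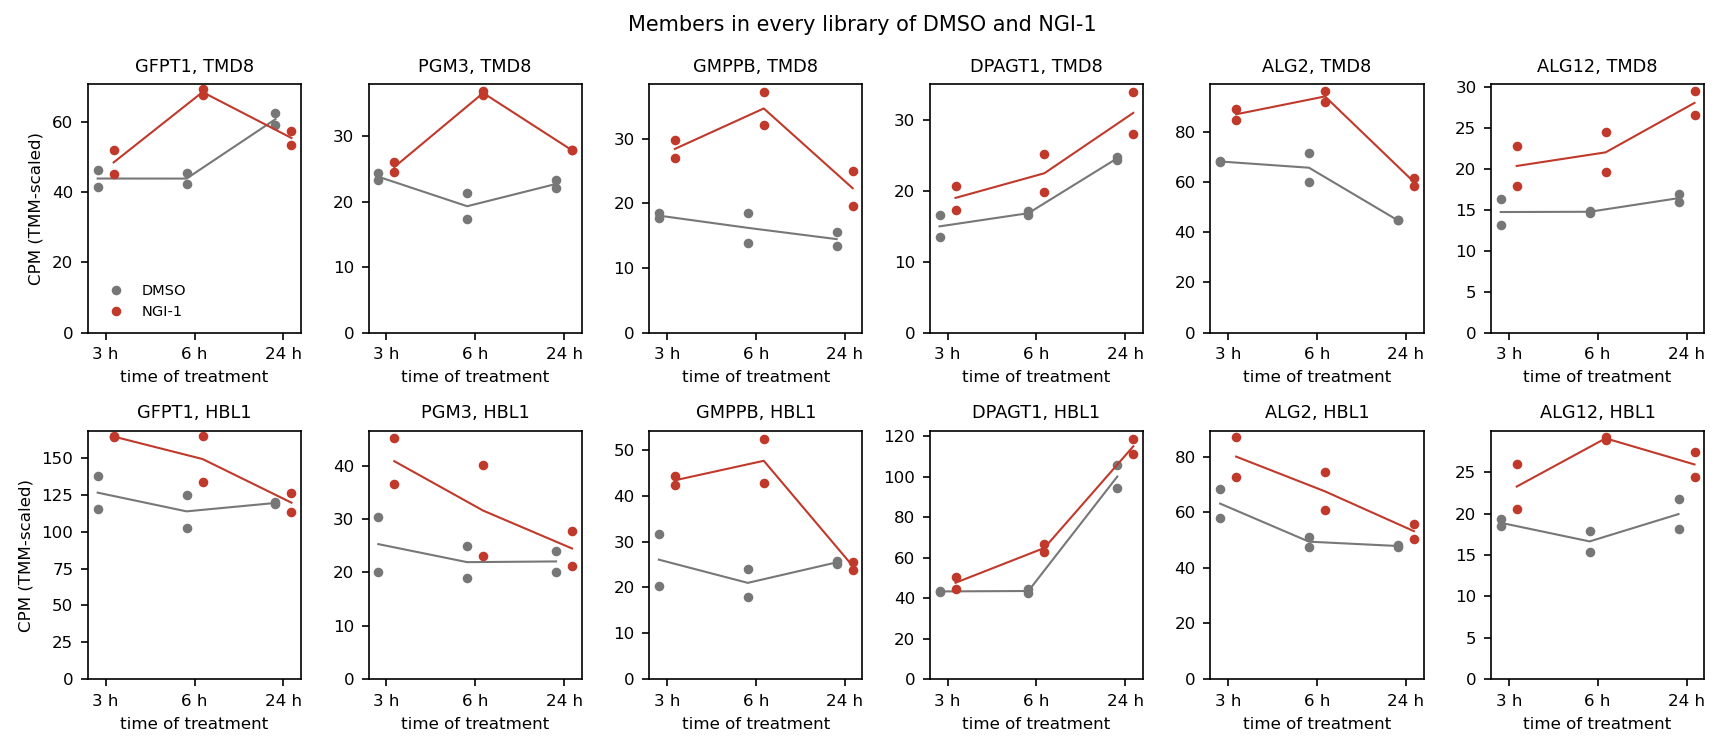
Levels in CPM after TMM scaling of 6 members in the DMSO and NGI-1 libraries by time of treatment, TMD8 above and HBL1 below. Points are libraries (2 per group), lines join group means, and each axis starts at 0. At 6 h the NGI-1 points lie above the DMSO points in each panel except that of PGM3 in HBL1, where 1 of them lies among the DMSO points.

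Members that make dolichol and its phosphate gave 8 calls, 2 higher and 6 lower, and 5 of the lower calls were in HBL1 at 24 h. There 11.4% of all genes were lower with acalabrutinib and 17.8% with copanlisib. For the 2 higher calls, with NGI-1 in TMD8 at 6 and 24 h, the share of all genes higher was 2.35% and 15.7%. For the other lower call, with copanlisib at 6 h in TMD8, 7.46% were lower. NUS1, a subunit of the cis-prenyltransferase that lengthens the polyprenyl chain, read 73.3 and 78.8 CPM against 63.02 and 54.6 CPM with NGI-1 and DMSO at 6 h in TMD8, 81.1 and 78.1 CPM against 105 and 93.8 CPM with acalabrutinib at 24 h in HBL1 and 74.4 and 73.8 CPM against 105 and 93.8 CPM with copanlisib. The groups did not overlap in any of the 3. The log2 change of NUS1 was 0.37 ± 0.11 (adjusted p = 0.036) with NGI-1, -0.32 ± 0.10 (adjusted p = 0.025) with acalabrutinib and -0.42 ± 0.10 (adjusted p = 0.0016) with copanlisib. The rise was lost without DMSO library 1 (0.059) or 2 (0.33) or NGI-1 library 1 (0.086) or 2 (0.3), and with the line fitted alone. The fall with acalabrutinib was lost without DMSO library 1 (0.27) or acalabrutinib library 1 (0.076) or 2 (0.14), and with no filter on low counts. The fall with copanlisib was lost without DMSO library 1 (0.054). A further fall with copanlisib at 6 h in TMD8, -0.32 ± 0.11 (adjusted p = 0.041), was lost without DMSO library 1 (0.41) or copanlisib library 1 (0.3) or 2 (0.059). DHDDS, the catalytic partner of NUS1, was called in none of the 18 comparisons.

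DOLK, the kinase that phosphorylates dolichol, read 6.14 and 7.02 CPM against 10.7 and 9.26 CPM with copanlisib and DMSO at 24 h in HBL1 and 21.2 and 16.1 CPM against 14.96 and 13.9 CPM with NGI-1 and DMSO in TMD8. The copanlisib libraries were below and the NGI-1 libraries above their DMSO libraries, by log2 changes of -0.61 ± 0.17 (adjusted p = 0.0047) and 0.37 ± 0.14 (adjusted p = 0.039). The fall was lost without DMSO library 1 (0.097) or copanlisib library 1 (0.078). The rise was lost without DMSO library 1 (0.075) or 2 (0.2) or NGI-1 library 1 (0.56), and with no filter on low counts, in DESeq2 or with the line fitted alone. DOLPP1, the phosphatase that recycles dolichyl pyrophosphate, read 10.8 and 12.4 CPM against 16.3 and 15.5 CPM with acalabrutinib and DMSO at 24 h in HBL1, where the copanlisib libraries read 10.1 and 12.7 CPM. Treated libraries lay below DMSO libraries. With acalabrutinib the log2 change was -0.45 ± 0.15 (adjusted p = 0.032), lost without DMSO library 1 (0.19) or 2 (0.065) or acalabrutinib library 1 (0.23), and with no filter on low counts or in DESeq2. With copanlisib it was -0.49 ± 0.15 (adjusted p = 0.012), lost without DMSO library 1 (0.096) or copanlisib library 1 (0.22), and with no filter on low counts. SRD5A3, the polyprenol reductase, was not called in any comparison, although its log2 change with NGI-1 at 6 h in HBL1 was 1.12 ± 0.40 (adjusted p = 0.24), and it read 0.851 to 12.3 CPM over the 48 libraries.

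Among the members that make or use dolichyl-phosphate mannose and glucose, the 7 calls were all lower and all at 24 h. Of all genes, 11.4% were lower with NGI-1, 11.4% with acalabrutinib and 17.8% with copanlisib then in HBL1, and 16% with copanlisib in TMD8. In HBL1 more of all genes were called lower than higher with each compound. DPM1, the catalytic subunit of dolichyl-phosphate mannose synthase, read 36.6 and 37.8 CPM against 52.7 and 52.3 CPM with copanlisib and DMSO at 24 h in HBL1 and 38.99 and 44.9 CPM against 52.7 and 52.3 CPM with acalabrutinib. Each treated library was below each DMSO library. The log2 change with copanlisib, -0.50 ± 0.11 (adjusted p = 0.00044), held in every recomputation, while that with acalabrutinib, -0.32 ± 0.11 (adjusted p = 0.03), was lost without DMSO library 1 (0.14) or 2 (0.084) or acalabrutinib library 1 (0.28), and with no filter on low counts, with a stricter filter or in DESeq2. In TMD8 the fall with copanlisib at 24 h was -0.29 ± 0.11 (adjusted p = 0.034) and was lost without DMSO library 1 (0.057) or 2 (0.19) or copanlisib library 1 (0.3), and with no filter on low counts or in DESeq2. DPM2, a stabilising subunit of the synthase, read 32.6 and 32.4 CPM against 42.05 and 44.4 CPM with NGI-1 and DMSO at 24 h in HBL1, and the copanlisib libraries there read 33.8 and 29.5 CPM. All 4 treated libraries were below both DMSO libraries. The log2 change was -0.41 ± 0.13 (adjusted p = 0.02) with NGI-1, lost without DMSO library 1 (0.066) or 2 (0.1) or NGI-1 library 1 (0.089) or 2 (0.1). With copanlisib it was -0.45 ± 0.13 (adjusted p = 0.0067), lost without copanlisib library 2 (0.11).

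MPDU1, which is needed for the use of dolichyl-phosphate sugars, read 21.7 and 19.5 CPM against 28.99 and 26.7 CPM with acalabrutinib and DMSO at 24 h in HBL1, and the copanlisib libraries read 22.2 and 20.7 CPM. None of the treated libraries reached a DMSO library. The log2 change was -0.44 ± 0.10 (adjusted p = 0.0014) with acalabrutinib, which held in every recomputation, and -0.38 ± 0.10 (adjusted p = 0.0029) with copanlisib, which was lost without DMSO library 1 (0.07), and with no filter on low counts. DPM3, the anchoring subunit of the synthase, and ALG5, which makes dolichyl-phosphate glucose, were called in none of the 18 comparisons. DPM3 had few reads, with 0.526 to 6.15 CPM over the libraries.

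On the cytosolic face, DPAGT1 adds the first sugar phosphate to dolichyl phosphate and is the target of tunicamycin. With NGI-1 at 6 h in HBL1 it read 66.9 and 62.8 CPM against 44.5 and 42.6 CPM, a log2 change of 0.57 ± 0.11 (adjusted p = 0.0011) with no overlap that held in every recomputation. Its log2 change at 6 h in TMD8, 0.41 ± 0.13 (adjusted p = 0.065), did not pass, and the rise at 24 h, 0.33 ± 0.12 (adjusted p = 0.032), was lost without DMSO library 1 (0.093) or 2 (0.13) or NGI-1 library 2 (0.4), and with no filter on low counts or with the line fitted alone. With the kinase inhibitors it was lower at 24 h in HBL1, at 77.4 and 86.3 CPM against 94.6 and 106 CPM with acalabrutinib and DMSO and 73.3 and 80.4 CPM against 94.6 and 106 CPM with copanlisib and DMSO. All treated libraries were below the DMSO libraries there. The log2 change was -0.29 ± 0.10 (adjusted p = 0.039) with acalabrutinib, lost without DMSO library 1 (0.05) or 2 (0.28) or acalabrutinib library 1 (0.29), and with RLE scaling, with no filter on low counts, with a stricter filter or in DESeq2. With copanlisib it was -0.38 ± 0.10 (adjusted p = 0.0033), lost without copanlisib library 1 (0.069) or DMSO library 2 (0.066). C2CD2L on the opposite strand covers 19.8% of the exon bases of DPAGT1, and its log2 change with NGI-1 at 6 h in HBL1 was 0.47 ± 0.15 (adjusted p = 0.16).

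ALG2, a mannosyltransferase, was called in 5 comparisons and was higher in each. It read 96.4 and 91.99 CPM against 71.5 and 60.02 CPM with NGI-1 and DMSO at 6 h in TMD8, 54.6 and 57.8 CPM against 44.8 and 44.7 CPM with acalabrutinib and DMSO at 24 h, and 57.4 and 60.2 CPM against 44.8 and 44.7 CPM with copanlisib and DMSO at 24 h. Treated libraries were above DMSO libraries each time. The log2 change with NGI-1 was 0.52 ± 0.11 (adjusted p = 0.0016) at 6 h, lost without DMSO library 2 (0.087), and 0.42 ± 0.11 (adjusted p = 0.0032) at 24 h, which held in every recomputation. With acalabrutinib it was 0.33 ± 0.11 (adjusted p = 0.023), lost without DMSO library 1 (0.089) or 2 (0.092) or acalabrutinib library 2 (0.14), and with copanlisib 0.39 ± 0.11 (adjusted p = 0.0063), lost without copanlisib library 2 (0.057). In HBL1 ALG2 rose with NGI-1 at 6 h, with a log2 change of 0.45 ± 0.11 (adjusted p = 0.024), which was lost without DMSO library 1 (0.13) or 2 (0.2) or NGI-1 library 2 (0.71), and with the line fitted alone. ALG13, which with ALG14 adds the second GlcNAc, fell with acalabrutinib at 6 h in HBL1, with a log2 change of -0.41 ± 0.13 (adjusted p = 0.049), and this was lost without DMSO library 1 (0.11) or 2 (0.24) or acalabrutinib library 1 (0.19) or 2 (0.23), and with no filter on low counts or with the line fitted alone. ALG14, ALG1 and ALG11 were called in none of the 18 comparisons. ALG11 shares 57.6% of its exon bases with UTP14C on the same strand. For ALG1 it is 30.8% with NAGPA-AS1 on the same strand and 26.5% with EEF2KMT on the other.

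On the lumenal face, ALG12 adds a mannose to the growing branch. It read 26.7 and 29.5 CPM against 15.9 and 16.97 CPM with NGI-1 and DMSO at 24 h in TMD8, 24.5 and 19.6 CPM against 14.9 and 14.6 CPM at 6 h, and 29.3 and 28.9 CPM against 15.4 and 17.9 CPM at 6 h in HBL1. The NGI-1 libraries were higher throughout. The log2 changes were 0.77 ± 0.14 (adjusted p = 5.2e-05), which held in every recomputation, 0.58 ± 0.15 (adjusted p = 0.015), lost without DMSO library 1 (0.14) or 2 (0.1) or NGI-1 library 1 (0.3), and 0.81 ± 0.14 (adjusted p = 0.00046), lost without DMSO library 1 (0.069). A rise at 24 h in HBL1 of 0.39 ± 0.14 (adjusted p = 0.049) was lost without DMSO library 1 (0.41) or NGI-1 library 1 (0.29) or 2 (0.067), and with no filter on low counts, in DESeq2, with the line fitted alone or in a robust fit. ALG12 was not called with either kinase inhibitor. Its promoter is the one printed above with the stress element. In the GRCh38 annotation 39% of the exon bases of ALG12 lie under AL671710.1, a noncoding RNA on the opposite strand. The strand setting of the counting is not given, so reads of that RNA may be among those of ALG12.

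ALG6, which adds the first glucose, read 27.3 and 30.3 CPM against 20.8 and 22.6 CPM with NGI-1 and DMSO at 24 h in TMD8 and 26.3 and 30.6 CPM against 20.8 and 22.6 CPM with copanlisib. Treated libraries exceeded the DMSO libraries. The log2 change was 0.41 ± 0.14 (adjusted p = 0.025) with NGI-1, lost without DMSO library 1 (0.16) or 2 (0.052) or NGI-1 library 2 (0.18), and with no filter on low counts. With copanlisib it was 0.39 ± 0.14 (adjusted p = 0.032), lost without DMSO library 1 (0.18) or 2 (0.062) or copanlisib library 2 (0.27), and with no filter on low counts. In HBL1 the rise with NGI-1 at 24 h, 0.42 ± 0.15 (adjusted p = 0.042), was lost without DMSO library 1 (0.7) or NGI-1 library 1 (0.14) or 2 (0.14), and with no filter on low counts or with the line fitted alone. ALG10B, which adds the last glucose, read 13.1 and 15.2 CPM against 11.6 and 7.82 CPM with NGI-1 and DMSO at 24 h in TMD8 and 13.5 and 18.7 CPM against 9.70 and 12.3 CPM with copanlisib and DMSO at 6 h. Both pairs of groups were apart, with log2 changes of 0.55 ± 0.20 (adjusted p = 0.035) and 0.56 ± 0.19 (adjusted p = 0.047). The first was lost without NGI-1 library 1 (0.05) or 2 (0.22) or DMSO library 2 (0.44). The second was lost without DMSO library 1 (0.39) or copanlisib library 2 (0.55), and with RLE scaling, with a stricter filter or with the line fitted alone. ALG10, its near copy, was not called, and 27.3% of its 50-base words also occur in ALG10B, so their reads may be shared.

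ALG3, which adds the first lumenal mannose, read 30.3 and 26.1 CPM against 32.2 and 36.3 CPM with acalabrutinib and DMSO at 24 h in TMD8 and 48.5 and 53.1 CPM against 60.2 and 65.05 CPM with copanlisib and DMSO in HBL1. The treated libraries were lower in both. With acalabrutinib in TMD8 the log2 change was -0.28 ± 0.10 (adjusted p = 0.036), lost without DMSO library 2 (0.31) or acalabrutinib library 2 (0.34), and with no filter on low counts, in DESeq2 or with the line fitted alone. With copanlisib in HBL1 it was -0.30 ± 0.10 (adjusted p = 0.014), lost without copanlisib library 1 (0.16) or DMSO library 2 (0.12), and with no filter on low counts. ALG8, which adds the second glucose, fell with copanlisib at 24 h in HBL1, with a log2 change of -0.38 ± 0.10 (adjusted p = 0.0038), lost without copanlisib library 1 (0.054). ALG9, another lumenal mannosyltransferase, was not called, and 74.5% of its exon bases belong to a second gene on the same strand.

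Direct comparison of the compounds at 24 h used no DMSO library. Against acalabrutinib, 1 member was higher with NGI-1 in TMD8 and 0 lower (all genes 1.31%, 1.12% higher and 0.187% lower), and in HBL1 3 were higher and 1 lower (3.18%, 1.53% higher and 1.65% lower). Against copanlisib it was 1 and 0 members in TMD8 (1.43%, 1.1% higher and 0.331% lower) and 6 and 1 in HBL1 (5%, 2.67% higher and 2.33% lower). The median log2 difference of the 32 members lay at 0.17 and 0.11 against acalabrutinib and 0.16 and 0.21 against copanlisib in TMD8 and HBL1, beside 0.00, 0.01, 0.00 and 0.01 over all genes. Copanlisib minus acalabrutinib called 0 members in either line (background 0.497% and 0.101%), with 0 in DESeq2 and 1 and 1 at an unadjusted p under 0.05. The 95% intervals for that difference were -0.19 to 0.22 for GNPNAT1 and -0.08 to 0.39 for UAP1 in TMD8, and -0.39 to -0.0033 and -0.17 to 0.20 in HBL1.

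In HBL1 DPAGT1 had the largest difference between NGI-1 and copanlisib of the tested members, with 111 and 119 CPM against 73.3 and 80.4 CPM and no overlap. The log2 difference was 0.58 ± 0.10 (adjusted p = 0.00016) against copanlisib, which held in every recomputation, and 0.49 ± 0.10 (adjusted p = 0.002) against acalabrutinib, lost without acalabrutinib library 1 (0.093) or NGI-1 library 2 (0.053). ALG8 was higher with NGI-1 than with copanlisib by 0.53 ± 0.10 (adjusted p = 0.00055), which held in every recomputation, and than with acalabrutinib by 0.41 ± 0.10 (adjusted p = 0.012), lost without acalabrutinib library 1 (0.17) or NGI-1 library 2 (0.25). MPDU1 was higher with NGI-1 than with acalabrutinib by 0.41 ± 0.10 (adjusted p = 0.012), lost without NGI-1 library 1 (0.21) or acalabrutinib library 2 (0.21), and with no filter on low counts or with the line fitted alone. Against copanlisib its difference was 0.35 ± 0.10 (adjusted p = 0.028), lost without copanlisib library 1 (0.087) or 2 (0.23) or NGI-1 library 1 (0.29) or 2 (0.057), and with no filter on low counts, in DESeq2 or with the line fitted alone. UAP1 was the member that was lower with NGI-1 in HBL1. The log2 difference was -0.33 ± 0.09 (adjusted p = 0.034) against acalabrutinib, lost without acalabrutinib library 1 (0.19) or 2 (0.14) or NGI-1 library 1 (0.14) or 2 (0.25). It was -0.34 ± 0.09 (adjusted p = 0.018) against copanlisib, lost without copanlisib library 1 (0.32) or NGI-1 library 1 (0.084) or 2 (0.16).

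The other calls of the direct comparisons were all higher with NGI-1. Against copanlisib in HBL1 ALG3 was higher by 0.37 ± 0.09 (adjusted p = 0.011), lost without copanlisib library 1 (0.2) or NGI-1 library 1 (0.091) or 2 (0.072), and with no filter on low counts. ALG12 was higher by 0.52 ± 0.14 (adjusted p = 0.021), lost without copanlisib library 1 (0.062) or 2 (0.22) or NGI-1 library 1 (0.28). NUS1 was higher by 0.34 ± 0.10 (adjusted p = 0.046), lost without copanlisib library 1 (0.19) or 2 (0.2) or NGI-1 library 1 (0.37) or 2 (0.073), and with RLE scaling, with no filter on low counts, with a stricter filter or in DESeq2. In TMD8 ALG3 was higher than with acalabrutinib by 0.48 ± 0.10 (adjusted p = 0.0064), lost without NGI-1 library 1 (0.12) or acalabrutinib library 2 (0.29). ALG12 was higher there than with copanlisib by 0.60 ± 0.14 (adjusted p = 0.013), lost without copanlisib library 1 (0.22) or NGI-1 library 2 (0.25).

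**Figure D4:**
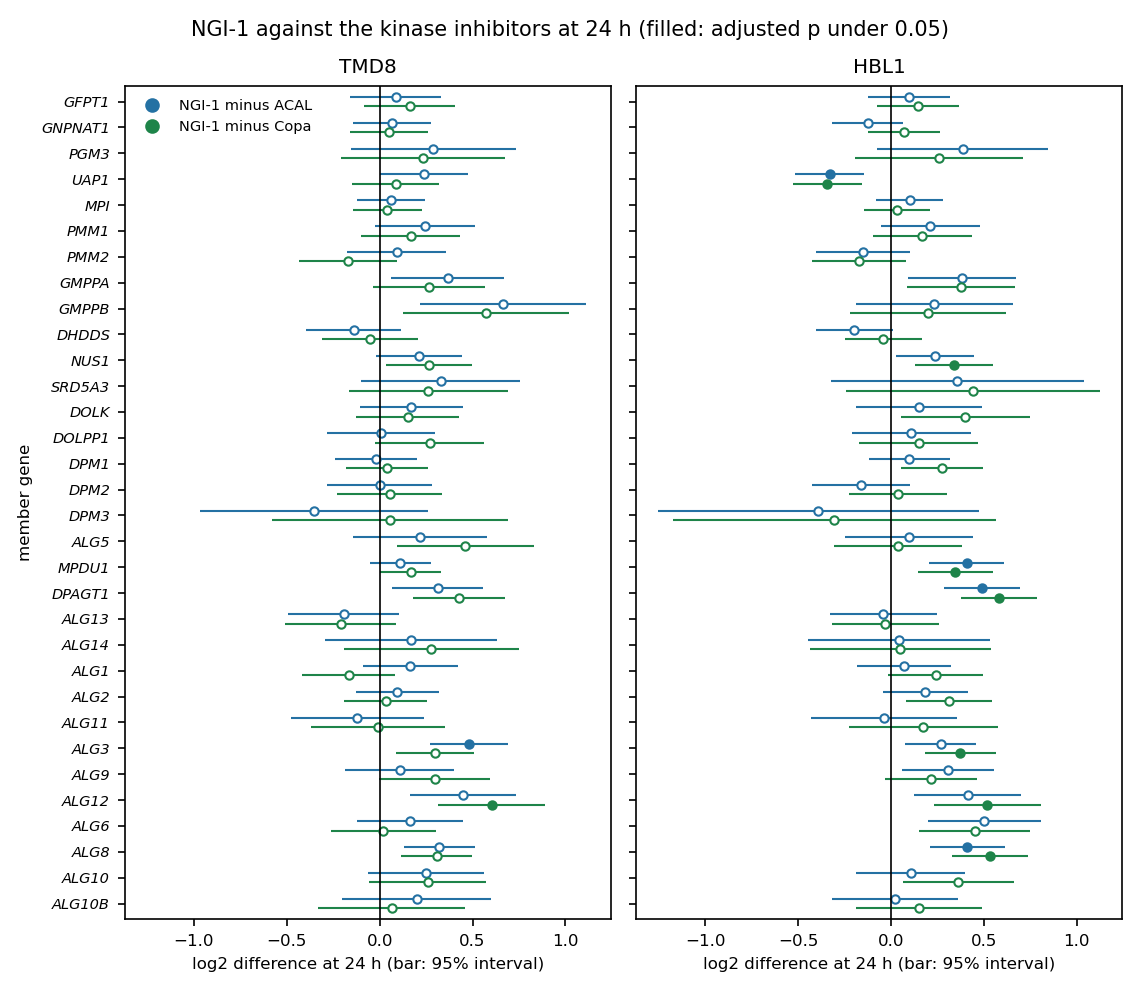
Log2 difference of each tested member between NGI-1 and acalabrutinib (ACAL, blue) or copanlisib (Copa, green) at 24 h, in TMD8 (left) and HBL1 (right), with 95% intervals as bars. Filled points passed an adjusted p under 0.05 in edgeR. In HBL1 the 6 filled points against copanlisib right of 0 include DPAGT1 and ALG8, and UAP1 lies left of 0.

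In DMSO at 24 h, 7 members were higher and 16 lower in TMD8 than in HBL1 (all genes 66%, 32.2% higher and 33.8% lower), with a median log2 difference of -0.25 beside -0.03. The share of tested members called, 71.9%, was near that of all genes, so the count does not set the pathway apart. DPAGT1 read 24.9 and 24.4 CPM against 94.6 and 106 CPM in TMD8 and HBL1, a log2 difference of -2.02 ± 0.11 (adjusted p = 2.7e-19). DHDDS and NUS1, the partners of the cis-prenyltransferase, were both lower in TMD8, at 19.6 and 21.7 CPM against 68.5 and 66.5 CPM and 48.5 and 40.3 CPM against 105 and 93.8 CPM. Their log2 differences were -1.71 ± 0.11 (adjusted p = 7.2e-17) and -1.16 ± 0.11 (adjusted p = 2e-12). MPDU1 and SRD5A3 were higher in TMD8, at 74.2 and 74.7 CPM against 28.99 and 26.7 CPM and 9.68 and 9.35 CPM against 2.49 and 2.16 CPM, with log2 differences of 1.42 ± 0.09 (adjusted p = 1.2e-17) and 2.02 ± 0.27 (adjusted p = 1.5e-08). For these 5 members the 2 lines did not overlap and the calls held without each library.

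The size of a compound effect was set against the line for each member as well. At 24 h the effects differed between lines for 1 member with NGI-1 (background 2.51%), 3 with acalabrutinib (4.25%) and 3 with copanlisib (4.18%), UAP1 among them each time. At 3 and 6 h no member passed for any compound, where the background was 0.0072% and 0.0216% for NGI-1, 0% and 0.166% for acalabrutinib and 0.0576% and 0.584% for copanlisib. DESeq2 called 0 in these 6 as well, and the members at an unadjusted p under 0.05 in edgeR numbered 0 and 4, 0 and 2, and 1 and 0. For NGI-1 at 6 h the count was 2 with the block within line and time. A member called in 1 line and not in the other, such as GFPT1 with NGI-1 at 6 h (line difference 0.25 ± 0.16 (adjusted p = 0.87)), was therefore not shown to differ between them.

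**Figure D5:**
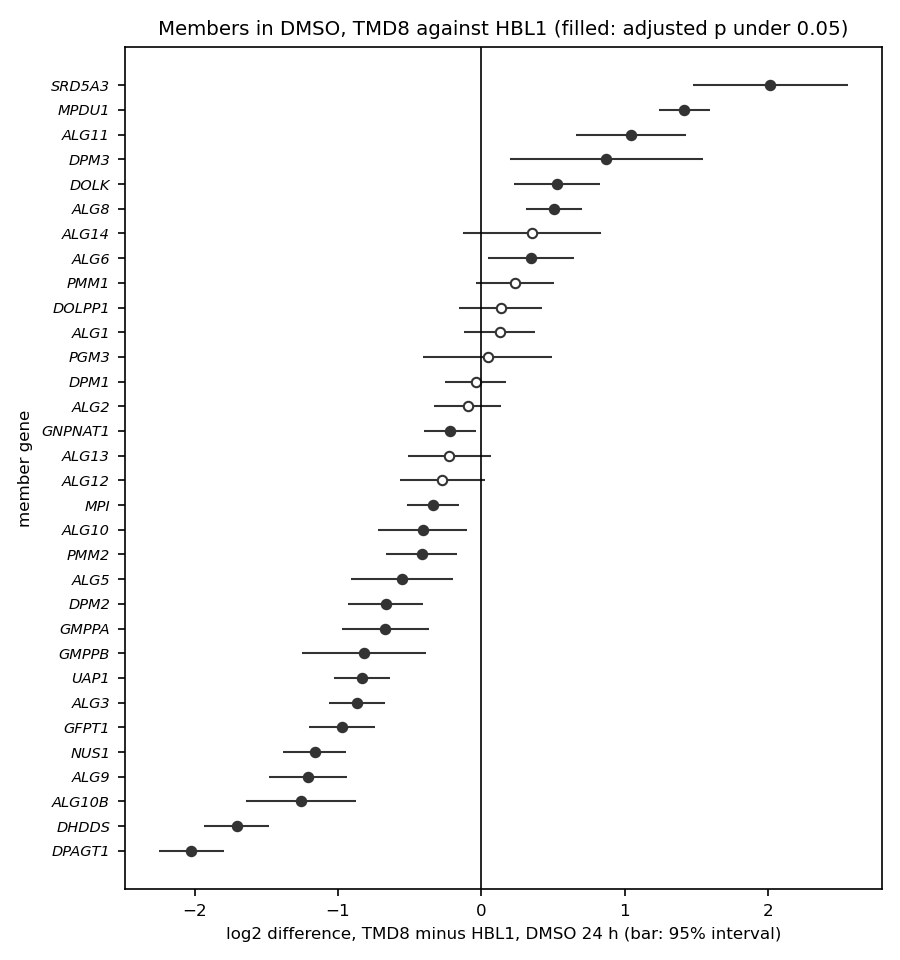
Log2 difference of each tested member between TMD8 and HBL1 in DMSO at 24 h, with 95% intervals as bars, ordered by size. Filled points passed an adjusted p under 0.05 in edgeR. DPAGT1 stands lowest at -2.02 and SRD5A3 highest at 2.02.

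The untreated cells also changed with time. Between 3 and 24 h in DMSO, 5 members rose and 10 fell in TMD8 (all genes 32.8%, 16.9% higher and 15.9% lower), and 7 rose and 8 fell in HBL1 (40%, 20.8% higher and 19.2% lower). Of the 15 in each line, 10 were called in both with the same direction and MPDU1 with opposite directions. DPAGT1 read 94.6 and 106 CPM against 42.9 and 43.8 CPM at 24 and 3 h in HBL1 and 24.9 and 24.4 CPM against 16.6 and 13.4 CPM in TMD8, so it rose without compound, with log2 changes of 1.21 ± 0.11 (adjusted p = 7e-12) and 0.70 ± 0.13 (adjusted p = 8.2e-05). PMM2 and ALG13 fell, with log2 changes of -0.92 ± 0.12 (adjusted p = 2.4e-07) in TMD8 and -0.78 ± 0.12 (adjusted p = 1.1e-06) in HBL1 for PMM2 and -0.77 ± 0.14 (adjusted p = 4e-05) and -0.79 ± 0.13 (adjusted p = 9.2e-06) for ALG13. For these 3 members the calls held without each library in both lines. The log2 change of MPDU1 was -0.34 ± 0.08 (adjusted p = 0.00092) in TMD8 and 0.29 ± 0.10 (adjusted p = 0.016) in HBL1, the latter lost without DMSO 3 h library 1 (0.15) or 2 (0.18) or DMSO 24 h library 1 (0.16), and with no filter on low counts, in DESeq2 or with the line fitted alone.

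Genes that work beside the members were counted from lists of their own. The lists were chosen with earlier results of these data known, so their counts are not separate support. Of 16 tested genes of the later steps of N-glycosylation, among them the subunits of the oligosaccharyltransferase, 8 were higher with NGI-1 at 6 h in TMD8 and 5 in HBL1, and 0 were lower, where 2.35% and 1.06% of all genes were higher. MAGT1, a subunit of the transferase, was higher with log2 changes of 0.88 ± 0.10 (adjusted p = 1.1e-08) and 0.71 ± 0.09 (adjusted p = 4.5e-06), and RPN1, another subunit, by 0.57 ± 0.09 (adjusted p = 1.8e-05) and 0.57 ± 0.09 (adjusted p = 3.4e-05). Of 9 tested genes of mevalonate and isoprenoid supply, which feed dolichol synthesis, 0 were called with NGI-1 at 6 h in either line, and with copanlisib at 24 h 6 were lower in TMD8 and 4 in HBL1, where 16% and 17.8% of all genes were lower. FDPS, the farnesyl diphosphate synthase, fell, with log2 changes of -0.53 ± 0.07 (adjusted p = 1.6e-07) and -0.49 ± 0.07 (adjusted p = 7.4e-07). Of 9 tested genes of hexose and hexosamine side reactions, 6 in TMD8 and 7 in HBL1 were called with NGI-1 at 24 h, 3 and 2 of them higher, where 30.7% and 19.4% of all genes were called. HK2, a hexokinase, was among those that fell, with log2 changes of -1.08 ± 0.11 (adjusted p = 9.2e-10) and -0.72 ± 0.11 (adjusted p = 8.9e-06). From the same list 5 in TMD8 and 3 in HBL1 were called with acalabrutinib at 24 h, beside 31% and 19% of all genes. With copanlisib it was 5 and 5, beside 31.8% and 30.5%. Of 8 reference genes of the unfolded protein response, 7 in TMD8 and 6 in HBL1 were higher with NGI-1 at 6 h, led by HSPA5, the chaperone BiP, with 2.02 ± 0.14 (adjusted p = 3.5e-13) and 1.67 ± 0.14 (adjusted p = 5e-11).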

How the data were processed

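RNA was sequenced from 48 samples, and the authors deposited raw read counts per gene, counted with HTSeq on hg19 per the submitters' processing notes. The aligner, versions, annotation release and strand setting are not given in the sources used here. Counts of different libraries total 7165377 to 11999050. From these counts 13881 genes that passed edgeR's filterByExpr were fitted with edgeR 4.0.16 in R 4.3.3 (TMM scaling, 24 group means, 24 residual degrees of freedom, quasi-likelihood F test). P-values were adjusted by Benjamini-Hochberg over all genes tested in each of 42 comparisons and called under 0.05. Log2 changes carry standard errors. The 3449 table entries with no gene ID held 0.815% of reads. They were not removed and went through the same filter as the other entries.

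The alternatives were RLE size factors, no filter, a stricter filter, DESeq2 1.42.0, a replicate block, separate fits of the lines, a robust fit (chosen after seeing the data) and leaving out each library. Counts of NGI-1 against DMSO at 24 h in TMD8 were also simulated (13775 genes). Of the genes changed by 0.5 on the log2 scale 58% were recovered, and of those changed by 1, 99%. Only 200 genes were changed, none of them at a low level, and every gene was given the same spread. The real comparison differs in these points, so the rates do not measure how many changed members would be found.

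The members and lists were chosen with earlier results of these data known. Values in every library were printed for members called in at least 2 of the 18 comparisons with DMSO, at the smallest adjusted p per compound, and other values were chosen after they were seen. Exon overlaps, from GENCODE 29 on GRCh38, and promoters, from RefSeq on GRCh38.p14, are of another build than the counts, so no coordinates were carried over.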

Additional observations from a re-analysis of the deposited data

Results flagged for a closer look

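These differences passed an adjusted p under 0.05 in edgeR in a test of the difference itself. Among 288 tests of a member's compound effect between the lines (TMD8 minus HBL1), 7 did so, all at 24 h. UAP1 differed for NGI-1 by -1.01 ± 0.14 (adjusted p = 1.3e-05), for acalabrutinib by -1.58 ± 0.14 (adjusted p = 8.9e-10) and for copanlisib by -1.44 ± 0.14 (adjusted p = 5.3e-09). GNPNAT1 differed for acalabrutinib by -0.46 ± 0.13 (adjusted p = 0.036), lost without TMD8 DMSO library 1 (0.09) or 2 (0.094), TMD8 acalabrutinib library 1 (0.16), HBL1 DMSO library 1 (0.081) or 2 (0.11) or HBL1 acalabrutinib library 1 (0.051) or 2 (0.15). MPDU1 differed for acalabrutinib by 0.44 ± 0.13 (adjusted p = 0.037), lost without TMD8 DMSO library 1 (0.086) or 2 (0.09), TMD8 acalabrutinib library 1 (0.11) or 2 (0.053), HBL1 DMSO library 1 (0.19) or HBL1 acalabrutinib library 2 (0.22), and with RLE scaling, with no filter on low counts or in DESeq2. DOLK differed for copanlisib by 0.82 ± 0.22 (adjusted p = 0.019), lost without TMD8 copanlisib library 1 (0.06), HBL1 DMSO library 1 (0.14), HBL1 copanlisib library 1 (0.12) or TMD8 DMSO library 2 (0.085), and with no filter on low counts or in DESeq2. ALG2 differed for copanlisib by 0.55 ± 0.16 (adjusted p = 0.038), lost without TMD8 DMSO library 1 (0.092) or 2 (0.12), TMD8 copanlisib library 1 (0.062) or 2 (0.094), HBL1 DMSO library 1 (0.087) or 2 (0.1) or HBL1 copanlisib library 1 (0.077) or 2 (0.13), and with RLE scaling, with no filter on low counts, with a stricter filter or in DESeq2.

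Among 192 tests of the effect at 24 h minus that at 3 h, 11 passed. With NGI-1, acalabrutinib and copanlisib, 6.25%, 6.25% and 9.38% of tested members passed in TMD8, beside 12.2%, 14.6% and 10.9% of all genes. In HBL1 it was 3.12%, 3.12% and 6.25%, beside 4.9%, 3.91% and 9.39%. The share of members was under that of all genes each time. For GNPNAT1 the difference was -0.85 ± 0.14 (adjusted p = 3.3e-05) with NGI-1 in TMD8, -0.69 ± 0.13 (adjusted p = 0.00055) with NGI-1 in HBL1, -0.85 ± 0.14 (adjusted p = 2.8e-05) with acalabrutinib in TMD8 and -0.74 ± 0.14 (adjusted p = 0.00023) with copanlisib in TMD8. For UAP1 in TMD8 it was -1.02 ± 0.15 (adjusted p = 7.6e-06) with NGI-1, -1.23 ± 0.15 (adjusted p = 2.1e-07) with acalabrutinib and -0.92 ± 0.15 (adjusted p = 4.1e-05) with copanlisib, and in HBL1 0.54 ± 0.13 (adjusted p = 0.012) with acalabrutinib, lost without acalabrutinib 24 h library 1 (0.059), and 0.67 ± 0.13 (adjusted p = 0.00072) with copanlisib. DOLPP1 with copanlisib in TMD8 gave -0.59 ± 0.20 (adjusted p = 0.044), lost without DMSO 3 h library 1 (0.093) or 2 (0.1), copanlisib 3 h library 1 (0.081) or 2 (0.11), DMSO 24 h library 1 (0.25) or copanlisib 24 h library 2 (0.19), and with no filter on low counts or in DESeq2. DPM1 with copanlisib in HBL1 gave -0.54 ± 0.15 (adjusted p = 0.019), lost without DMSO 3 h library 1 (0.11) or 2 (0.071), copanlisib 3 h library 1 (0.14) or 2 (0.054), DMSO 24 h library 1 (0.067) or copanlisib 24 h library 1 (0.074), and with no filter on low counts. The 2 kinds of test share libraries. Groups held 2 libraries each, too few for a test of an outlying sample.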

How the results depend on the processing

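Counts of called members stayed within 1.5 times in all 42 comparisons with RLE size factors and with a robust fit chosen after seeing the data, and in 41 with a stricter filter, 40 with DESeq2 and 30 with no filter. No change of sign was seen among 145 called values recomputed. Of the 61 calls against DMSO, 37 were kept in every other setting and 20 without each library. With no filter the counts against DMSO moved from 0 to 1 (NGI-1, TMD8, 3 h), 0 to 3 (NGI-1, HBL1, 3 h), 1 to 0 (acalabrutinib, HBL1, 6 h), 7 to 3 (acalabrutinib, HBL1, 24 h) and 1 to 0 (copanlisib, HBL1, 3 and 6 h). They moved from 3 to 1 in the line difference for copanlisib, from 1 to 2 in TMD8 and 7 to 4 in HBL1 for NGI-1 minus copanlisib, from 1 to 2 for NGI-1 minus acalabrutinib in TMD8, and from 1 to 2 (NGI-1) and 2 to 1 (copanlisib) in the time differences in HBL1. DESeq2 gave 4 in place of 7 for acalabrutinib in HBL1 at 24 h and 1 in place of 3 in the line difference for copanlisib. The stricter filter gave 2 in place of 1 for copanlisib in HBL1 at 6 h. Fitting each line alone gave 1 for NGI-1 in TMD8 at 3 h, 3 and 2 for NGI-1 in HBL1 at 6 and 24 h, 1 and 0 for acalabrutinib at 6 h in TMD8 and HBL1, 2 for copanlisib in HBL1 at 6 h, 2 for NGI-1 minus acalabrutinib in TMD8 and 2 for the time difference of acalabrutinib in HBL1. The cause was not tested.

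The labels do not say that a replicate number marks a shared culture or day. Same-numbered libraries deviated together in all 24 pairs of groups, with correlations of 0.047 to 0.302, of which 17 passed 0.1, and against DMSO in HBL1 with 0.122 to 0.237. With the number as a replicate block, 38 comparisons stayed within 1.5 times, and the counts became 3 for NGI-1 in HBL1 at 3 h, 2 for copanlisib in HBL1 at 6 h, and 2 for the time differences of NGI-1 and acalabrutinib in HBL1. With a replicate block within each line and time 24 of 42 counts moved by more, and the counts for NGI-1 at 3, 6 and 24 h became 4, 11 and unchanged within 1.5 times in TMD8 and 5, 10 and 11 in HBL1. For acalabrutinib they became 3 and 7 at 6 and 24 h in TMD8 and 3 at 6 h in HBL1. For copanlisib they became 1 and 8 at 3 and 24 h in TMD8 and 2 and 3 at 3 and 6 h in HBL1. The line differences for NGI-1 became 2 at 6 h and 2 at 24 h. NGI-1 minus acalabrutinib became 5 and 10, NGI-1 minus copanlisib 6 and 11, and the time differences 5 and 8 for NGI-1, 4 and 4 for acalabrutinib and 5 and 5 for copanlisib, in TMD8 and HBL1.

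Without 1 library the counts against DMSO ranged over 0 to 1, 3 to 5 and 5 to 8 for NGI-1 in TMD8 at 3, 6 and 24 h, and 0 to 1, 1 to 7 and 1 to 4 in HBL1. They ranged over 2 to 4 for acalabrutinib in TMD8 at 24 h, 0 to 0 and 3 to 6 in HBL1 at 6 and 24 h, 2 to 4 and 3 to 5 for copanlisib in TMD8 at 6 and 24 h, and 0 to 1, 0 to 1 and 6 to 10 in HBL1. The line differences at 24 h ranged over 1 to 2 for acalabrutinib and for copanlisib. The ranges were 0 to 1 and 1 to 2 for NGI-1 minus acalabrutinib and 0 to 2 and 2 to 4 for NGI-1 minus copanlisib in TMD8 and HBL1, 1 to 2, 0 to 1 and 1 to 2 for the time differences of NGI-1, acalabrutinib and copanlisib in HBL1, and 5 to 12 and 9 to 11 for DMSO over time. With 2 libraries a group, leaving 1 out leaves a lone library assumed to vary like the other groups. GFPT2, with 4 reads, could not be tested at this depth.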
